A study of Rattus norvegicus with 12 samples.

Results

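Levels of 6 genes of glucose uptake and glycolysis were described in rat T cells that recognise an antigen of myelin. The genes, given with their Ensembl identifiers, are Slc2a1 (ENSRNOG00000007284), Hk2 (ENSRNOG00000006116), Gapdh (ENSRNOG00000018630), Eno1 (ENSRNOG00000017895), Pkm (ENSRNOG00000011329) and Ldha (ENSRNOG00000013009). They were chosen with earlier results of these data known, so their counts beside the shares of all genes are a description. They are 6 of the 26405 genes listed, and all 6 were among the 11498 genes with enough counts to be tested. The CD4+ cells are specific for myelin basic protein, a component of the myelin sheath, and express green fluorescent protein. They came from wild type Lewis rats with experimental autoimmune encephalomyelitis, a model of multiple sclerosis in which the central nervous system (CNS) is inflamed. Flow cytometry at low temperature recovered them from blood, cerebrospinal fluid (CSF), spinal cord meninges and CNS parenchyma, with 3 RNA sequencing libraries per compartment. All 4 groups share strain, genotype and cell type label and differ by compartment. The animals' age, the day of disease, how the fluorescent cells entered the animals, and whether libraries came from separate animals or from pools are not stated in the labels. The p-values therefore weigh differences against the spread of these libraries, which may not be that between animals and may be partly technical.

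Glycolysis breaks glucose down to pyruvate in the cytosol, and lactate dehydrogenase can reduce pyruvate to lactate so that the pathway keeps running. T cells that have met antigen are known to raise glucose uptake and to send much of it to lactate even when oxygen is present. The 6 genes cover the way in (Slc2a1, the transporter GLUT1, and Hk2, the hexokinase that traps glucose inside the cell as its phosphate), the later steps of the pathway (Gapdh, Eno1 and Pkm) and the way out to lactate (Ldha). Transcription factors of the hypoxia-inducible factor family and Myc are textbook activators of this pathway.

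The genes differ in how well short reads can be assigned to them. A RefSeq gene table of the GRCr8 assembly lists 79 pseudogenes named after Gapdh, 30 each after Eno1 and Ldha and 19 after Pkm, and 0 after Slc2a1 or Hk2. Reads that aligned to several places were listed apart from the gene counts, and how many of them came from these genes is not recorded. Counts of Gapdh, Eno1, Pkm and Ldha are therefore uncertain as absolute levels, and most so for Gapdh, whose counts were the lowest of the 6, at 163 to 515 per library. The fold changes of these 4 genes rest on the reads that were kept. As the share of multiply aligned entries ran from 35.8% to 65.2% between libraries, the part of each gene's reads that was kept may differ as well. Its effect on the fold changes was not tested gene by gene. Slc2a1 had 437 to 2503 and Hk2 628 to 1734 counts per library.

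The sequences before the start sites of Slc2a1, Hk2 and Ldha are shown because of their levels. Slc2a1 differed most from blood, and Ldha least in both CNS tissues. Hk2 alone had its highest mean in CSF, though no pair of CNS compartments passed the main test for it. Each line gives the 250 bases before the RefSeq start site, 5′ to 3′ on the gene's strand, from the RefSeq promoter table of GRCr8. The Slc2a1 window is chr5:138002272-138002521 on the plus strand, that of Hk2 is chr4:116841276-116841525 on the minus strand and that of Ldha is chr1:106507842-106508091 on the plus strand. Capitals mark ACGTG or GCGTG, the core of the element bound by hypoxia-inducible factors, on either strand, where they read CACGT or CACGC.
Slc2a1: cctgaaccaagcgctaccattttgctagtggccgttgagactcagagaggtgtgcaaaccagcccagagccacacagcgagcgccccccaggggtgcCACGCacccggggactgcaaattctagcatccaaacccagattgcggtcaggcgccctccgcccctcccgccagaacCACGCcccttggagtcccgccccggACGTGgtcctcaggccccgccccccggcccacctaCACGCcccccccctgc
Hk2: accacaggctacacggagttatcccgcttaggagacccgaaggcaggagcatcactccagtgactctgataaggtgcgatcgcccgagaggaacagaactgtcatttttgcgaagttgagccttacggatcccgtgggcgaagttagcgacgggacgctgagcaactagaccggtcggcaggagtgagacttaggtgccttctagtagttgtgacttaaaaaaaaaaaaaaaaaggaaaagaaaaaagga
Ldha: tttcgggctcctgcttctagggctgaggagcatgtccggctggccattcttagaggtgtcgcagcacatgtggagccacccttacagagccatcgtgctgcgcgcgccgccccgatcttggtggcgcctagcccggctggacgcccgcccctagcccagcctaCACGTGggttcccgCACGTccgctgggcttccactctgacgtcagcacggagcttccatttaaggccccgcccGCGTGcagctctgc
The Slc2a1 window holds 4 matches, beginning 153, 76, 51 and 16 bases before the start. The Ldha window holds 4, beginning 87, 86, 73 and 14 bases before the start, and the first pair overlap to form the palindrome CACGTG, the sequence bound by Myc and its relatives. No match is present in the Hk2 window. The table holds 7 windows for the 6 genes, as Eno1 has a pair of start sites. Matches were present in 5 windows (those of Slc2a1, Gapdh, Ldha and both of Eno1) and absent from those of Hk2 and Pkm. Of all 33469 windows of this length in the table, 36.7% hold at least 1 match and 5.59% hold CACGTG. These matches describe the letters only.

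Gene counts summed to between 11277725 and 22056664 per library, and the share of entries aligned to several places was 35.8% to 43.9% in 10 libraries, 65.2% in blood library 3 and 61.4% in meninges library 2. Meninges library 3 had counts for 18299 genes, against 14525 to 16096 in the others. Levels are given as CPM, the reads of a gene relative to a fixed total for each library, after scaling by the trimmed mean of M values. In bulk samples fewer expressing cells and less RNA per cell cannot be told apart. Gene names are not paired with identifiers beyond these 6, so the CD4+ T cell label and the presence of other cells could not be checked against marker genes, and their part in the levels was not tested.

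All 6 genes were higher in T cells from the CNS tissue than in T cells from the blood. In parenchyma all 6 were higher than in blood, by 1.66-fold (Ldha) to 4.18-fold (Slc2a1), in a comparison where 24.6% of all genes tested were called higher. In meninges all 6 were also higher than in blood, by 1.32-fold (Ldha) to 2.96-fold (Slc2a1), against 16.6% of all genes. In CSF 2 of the 6 were higher, Slc2a1 by 2.38-fold and Hk2 by 1.97-fold, against 17.5% of all genes, and the other 4 did not pass the test. Without CSF library 2 the count in CSF was 4, with Eno1 and Ldha added. In that fit 3720 of all genes were called in either direction, against 4310 with all libraries. Slc2a1 and Hk2 were thus higher than in blood in all 3 CNS compartments, as were 10.9% of all genes. None of the 6 was called lower in these comparisons, which share the blood libraries. The libraries of 3 of the 6 genes did not overlap between CSF and blood, against 51.1% of all genes. For meninges and for parenchyma this held for 6 of the 6, against 50.9% and 58.2%. A gene was called at a Benjamini-Hochberg adjusted p under 0.05 in edgeR's quasi-likelihood test, and all adjusted p-values below are of that kind unless another tool is named. The median log2 fold change of the 6 genes against blood was 0.26 for CSF, 0.62 for meninges and 0.84 for parenchyma. That of all genes tested was -0.02, -0.01 and 0.00, but scaling between libraries places it near 0. The median absolute log2 fold change of all genes was 0.24, 0.24 and 0.32, so that the CSF median of the 6 was near the size of a typical change. A difference among the 4 compartments was called for all 6 genes, as it was for 53.8% of all genes, with adjusted p from 2.83e-08 for Slc2a1 to 0.00199 for Pkm.

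**Figure D1:**
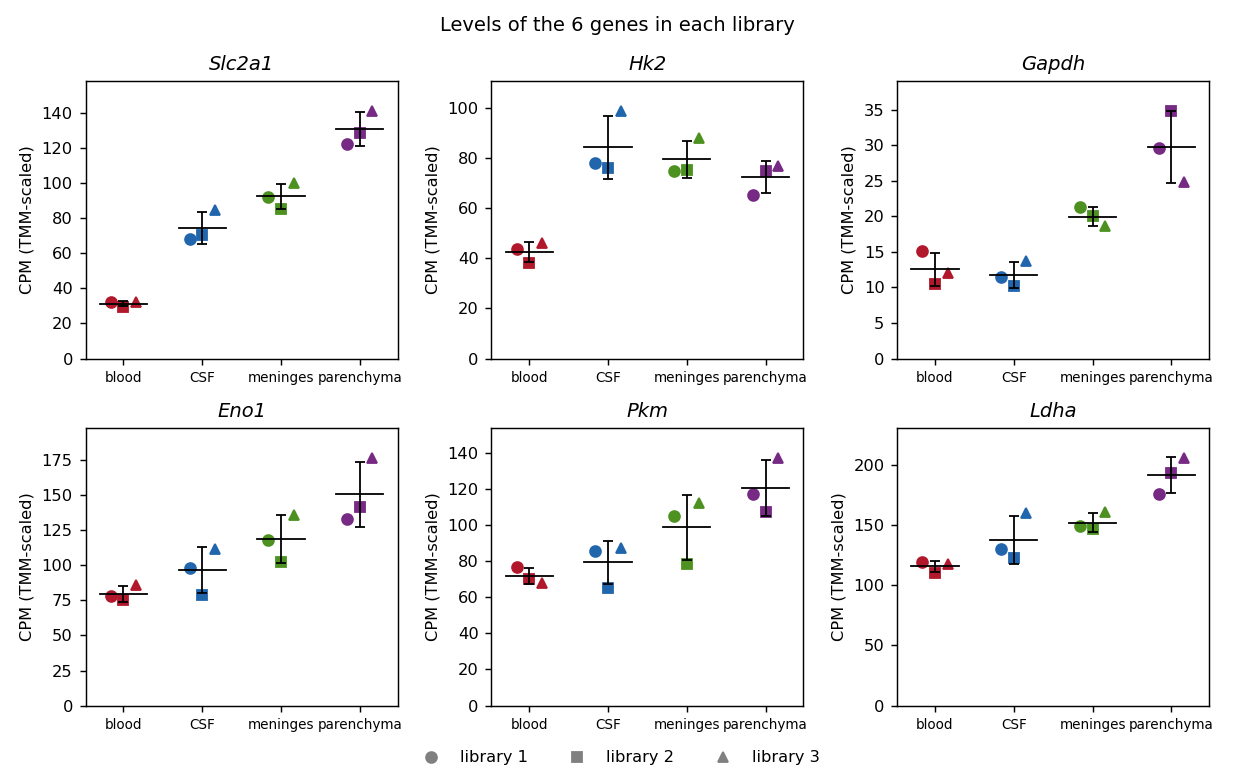
Level of each gene in each library, in CPM on a linear axis from 0, by compartment; marker shapes give the library number, the horizontal line the mean of 3 libraries and the bar 1 SD. The 3 parenchyma libraries of Slc2a1, at 122 to 141 CPM, lie above all others, whereas Hk2 is highest in a CSF library, at 99.0 CPM.

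Slc2a1, the glucose transporter, differed most from blood and was ordered by compartment. It stood at 32.0, 29.6 and 32.1 CPM in blood libraries 1, 2 and 3, and at 68.2, 70.2 and 84.7 CPM in those of CSF. In meninges the 3 values were 91.9, 85.2 and 99.9 CPM, and in parenchyma 122, 129 and 141 CPM. The groups did not overlap, and the narrowest gap lay between CSF library 3 and meninges library 2. The mean was 31.3 ± 1.41 CPM (SD, n = 3) for blood, and 74.4 ± 9.04, 92.3 ± 7.34 and 131 ± 9.55 CPM for CSF, meninges and parenchyma. The log2 fold change against blood was 1.25 for CSF (SE 0.10, adjusted p = 7.4e-07), 1.56 for meninges (SE 0.10, adjusted p = 1.06e-07) and 2.06 for parenchyma (SE 0.10, adjusted p = 3.82e-09). Parenchyma was also higher than meninges, by 0.50 (SE 0.09, adjusted p = 0.00392), and than CSF, by 0.82 (SE 0.09, adjusted p = 3.06e-05). Meninges and CSF, neighbours in this order, did not pass the test, with a log2 difference of 0.32 (95% interval 0.11 to 0.52 before adjustment for multiple testing, adjusted p = 0.103). With the library number as a replicate block that difference was 0.32 with an adjusted p of 0.00679, and without CSF library 3 it was 0.41 with an adjusted p of 0.0405. Without the filter on low counts it was 0.29 with an adjusted p of 0.0486. That fit gave far smaller adjusted p-values for calls already made, such as 9.5e-33 for Slc2a1 in CSF against blood. Calls gained in it, here and for the genes below, are therefore not on a par with those of the main fit. Among all genes tested the Slc2a1 fold change against blood exceeded that of 97.3% of genes for CSF, 97.5% for meninges and 97.4% for parenchyma.

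Hk2, the hexokinase isoform induced in activated lymphocytes, was higher than in blood in all CNS compartments. Its values were 43.6, 38.3 and 46.2 CPM in the blood libraries and 78.0, 76.0 and 99.0 CPM in those of CSF. Meninges libraries held 75.1, 75.4 and 88.2 CPM and parenchyma libraries 65.2, 75.1 and 77.0 CPM. Every CNS library lay above every blood library, while the 3 CNS groups overlapped. The mean was 42.7 ± 4.04 CPM (SD, n = 3) for blood, and 84.3 ± 12.8, 79.5 ± 7.46 and 72.4 ± 6.34 CPM for CSF, meninges and parenchyma, so that the order of the CNS compartments was the reverse of that of Slc2a1. The log2 fold change against blood was 0.98 for CSF (SE 0.11, adjusted p = 2.62e-05), 0.90 for meninges (SE 0.12, adjusted p = 5.36e-05) and 0.76 for parenchyma (SE 0.12, adjusted p = 0.000104). No pair of CNS compartments passed the test for Hk2. The log2 difference of parenchyma from CSF was -0.22 (95% interval -0.46 to 0.03, adjusted p = 0.16), and with the replicate block it was -0.21 and called lower, at an adjusted p of 0.0309, as were 21.5% of all genes. Without CSF library 3 it was -0.09 (adjusted p = 0.575). That of meninges from CSF was -0.08 (95% interval -0.32 to 0.16) and that of parenchyma from meninges -0.14 (95% interval -0.38 to 0.11). Without CSF library 3 the first of these was 0.05, and without meninges library 3 the second was -0.06.

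The number of Hk2 reads per Slc2a1 read within a library does not depend on scaling between libraries. The ratio was chosen after the levels had been seen and is given as a description, with no test. The ratio was 1.36, 1.29 and 1.44 in blood libraries 1, 2 and 3 and 1.14, 1.08 and 1.17 in those of CSF. It was 0.817, 0.884 and 0.883 in the meninges libraries and 0.532, 0.584 and 0.545 in those of parenchyma. The 4 groups did not overlap, and the mean was 1.36 ± 0.0728 (SD, n = 3) in blood and 0.554 ± 0.0269 in parenchyma. As the genes differ in length, the ratio is meaningful only between compartments and does not give the ratio of transcripts.

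**Figure D2:**
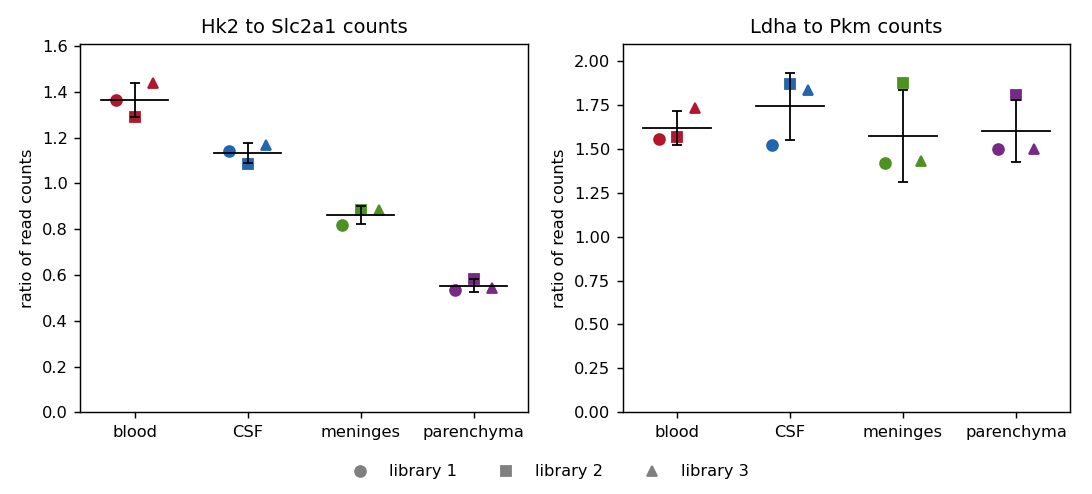
Ratio of read counts of Hk2 to Slc2a1 (left) and of Ldha to Pkm (right) in each library, on linear axes from 0; marker shapes give the library number, lines the mean of 3 libraries and bars 1 SD. The Hk2 to Slc2a1 ratio steps down from a mean of 1.36 in blood to 0.554 in parenchyma without overlap, whereas the Ldha to Pkm ratio lies between 1.42 and 1.87 in all compartments.

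Gapdh, the dehydrogenase that makes the NADH of glycolysis, was higher than in blood in both CNS tissues and did not pass the test in CSF. It stood at 15.1, 10.5 and 11.99 CPM in the blood libraries and at 11.5, 10.1 and 13.7 CPM in those of CSF. The meninges libraries held 21.3, 20.0 and 18.6 CPM and the parenchyma libraries 29.5, 34.8 and 24.8 CPM. Blood and CSF overlapped, and meninges and parenchyma lay above both and apart from each other. The log2 difference of CSF from blood was -0.10 (95% interval -0.45 to 0.25, adjusted p = 0.667), and its sign changed when blood library 1 (0.06) or CSF library 2 (0.00) was left out. Against blood Gapdh was higher by 0.67 in meninges (SE 0.16, adjusted p = 0.00537) and by 1.24 in parenchyma (SE 0.16, adjusted p = 2.22e-05). Against CSF it was higher by 0.76 in meninges (SE 0.16, adjusted p = 0.0237) and by 1.34 in parenchyma (SE 0.16, adjusted p = 3.71e-05). Parenchyma exceeded meninges by 0.57 (SE 0.15, adjusted p = 0.027). The call of meninges over CSF was lost without CSF library 1 (adjusted p = 0.077) or 2 (0.101) and without meninges library 1 (0.113) or 3 (0.0545). The call of parenchyma over meninges was lost without any of the 3 meninges libraries (adjusted p = 0.052, 0.069 and 0.108) and without parenchyma library 1 (0.0712) or 2 (0.116). Without blood library 3 and meninges library 2 together, those with the highest shares of multiply aligned entries, the difference of parenchyma from meninges was 0.57 (adjusted p = 0.0935) and that of meninges from CSF 0.76 (adjusted p = 0.0605).

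Eno1, the enolase that forms phosphoenolpyruvate, was ordered as Slc2a1 was, over a smaller range. Its values were 78.2, 74.9 and 85.6 CPM in the blood libraries and 98.3, 79.0 and 112 CPM in those of CSF. The meninges libraries held 118, 102 and 136 CPM and the parenchyma libraries 133, 142 and 176 CPM. Meninges and parenchyma libraries all lay above the blood libraries, and neighbouring compartments overlapped at each step of the order. Eno1 was higher than in blood by 0.58 on the log2 scale in meninges (SE 0.14, adjusted p = 0.00547) and by 0.92 in parenchyma (SE 0.14, adjusted p = 0.000104), and in parenchyma it exceeded CSF by 0.64 (SE 0.14, adjusted p = 0.00298). CSF differed from blood by 0.28 (95% interval -0.02 to 0.57, adjusted p = 0.135). That difference was called with the replicate block (0.27, adjusted p = 0.00909), without CSF library 2 (0.40, adjusted p = 0.0345) and without the filter on low counts (0.31, adjusted p = 0.00743), whereas without CSF library 3 it was 0.16 (adjusted p = 0.405). Meninges differed from CSF by 0.30 (95% interval 0.01 to 0.60, adjusted p = 0.303) and parenchyma from meninges by 0.34 (95% interval 0.05 to 0.64, adjusted p = 0.13). With the replicate block both were called, at adjusted p of 0.0208 and 0.00437. The first was 0.18 without CSF library 2 (adjusted p = 0.64) and 0.19 without meninges library 3 (adjusted p = 0.655), and the second 0.21 without parenchyma library 3 (adjusted p = 0.364). Without the filter the second was called (0.36, adjusted p = 0.00315).

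Pkm, the pyruvate kinase of the last step to pyruvate, passed the test for any difference among compartments with the largest adjusted p of the 6. Its values were 76.5, 70.2 and 67.9 CPM in the blood libraries and 85.4, 65.4 and 87.1 CPM in those of CSF. The meninges libraries held 105, 78.2 and 112 CPM and the parenchyma libraries 117, 107 and 137 CPM. Library 2 was the lowest of its group in CSF, meninges and parenchyma, and CSF library 2 lay below all blood libraries. Pkm was higher than in blood by 0.46 in meninges on the log2 scale (SE 0.14, adjusted p = 0.021) and by 0.75 in parenchyma (SE 0.14, adjusted p = 0.000592), and in parenchyma it exceeded CSF by 0.61 (SE 0.14, adjusted p = 0.0051). The call of meninges over blood was lost without blood library 3 (adjusted p = 0.0682), meninges library 1 (0.0677) or meninges library 3 (0.096). CSF differed from blood by 0.15 (95% interval -0.16 to 0.45), a span that includes no change, and by 0.08 without CSF library 3 and 0.27 without CSF library 2. Meninges differed from CSF by 0.32 (95% interval 0.01 to 0.62, adjusted p = 0.29) and parenchyma from meninges by 0.29 (95% interval -0.01 to 0.59, adjusted p = 0.213), and both were called with the replicate block, at adjusted p of 0.0426 and 0.0291. They were also called without the filter on low counts (adjusted p = 0.0493 and 0.0194). The first was 0.19 without CSF library 2 (adjusted p = 0.62) and 0.21 without meninges library 3 (adjusted p = 0.634). The second was 0.15 without meninges library 2 (adjusted p = 0.539) and 0.19 without parenchyma library 3 (adjusted p = 0.474). The spliced forms of Pkm are counted together here, so the levels do not tell them apart.

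Ldha, which turns pyruvate to lactate, changed by the smallest factor of the 6 in meninges and in parenchyma relative to blood. Its values were 119, 110.2 and 118 CPM in the blood libraries and 129.8, 122 and 159.8 CPM in those of CSF. The meninges libraries held 149, 146 and 161 CPM and the parenchyma libraries 176, 193 and 206 CPM. Blood lay below all other groups and parenchyma above all others, while CSF and meninges overlapped through CSF library 3. Ldha was higher than in blood by 0.40 on the log2 scale in meninges (SE 0.10, adjusted p = 0.00558) and by 0.73 in parenchyma (SE 0.10, adjusted p = 3.09e-05). Parenchyma exceeded CSF by 0.48 (SE 0.09, adjusted p = 0.00174) and meninges by 0.33 (SE 0.09, adjusted p = 0.0364). The last call was lost without blood library 3 (adjusted p = 0.0502), any of the 3 meninges libraries (0.104, 0.111 and 0.0647), or parenchyma library 2 (0.107) or 3 (0.104), and with scaling by library size alone (0.078). CSF libraries all lay above the blood libraries, with a log2 difference of 0.25 that did not pass the test (SE 0.09, adjusted p = 0.0567). It did pass with the replicate block (adjusted p = 0.0127), without CSF library 2 (0.018) or parenchyma library 1 (0.0426), with RLE scaling (0.0452), without the filter on low counts (0.0171) and with DESeq2 (0.0289). Without CSF library 3 it was 0.13 (adjusted p = 0.24). Meninges and CSF differed by 0.15 (95% interval -0.06 to 0.35, adjusted p = 0.476), and by 0.07 without CSF library 2 and 0.27 without CSF library 3.

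**Figure D3:**
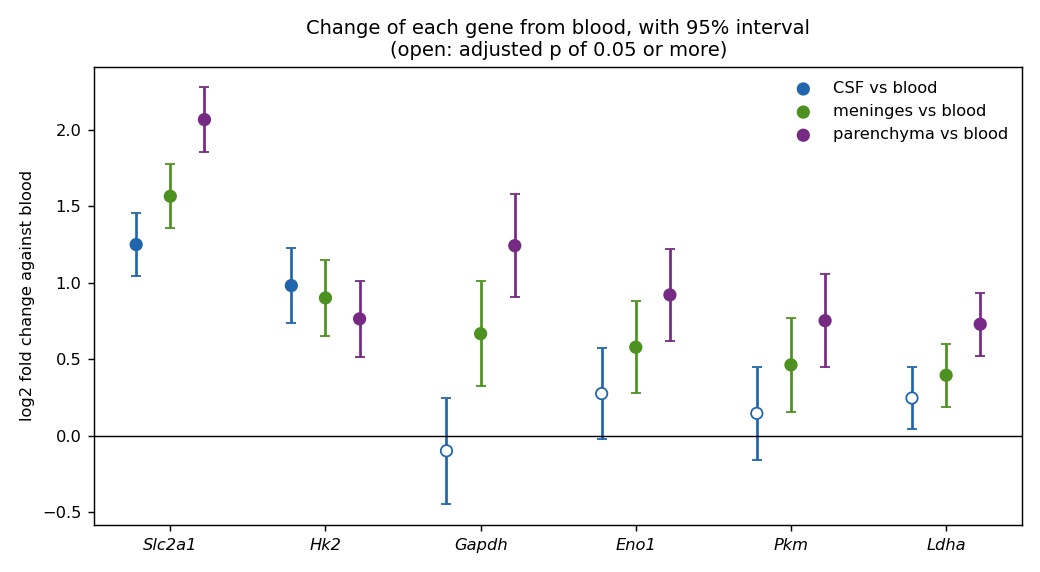
Log2 fold change of each gene against blood in CSF, meninges and parenchyma, with 95% intervals from the edgeR fit; filled points passed an adjusted p of 0.05 and open points did not. Points step up from CSF to parenchyma for 5 genes, and for Hk2 they run from 0.98 in CSF to 0.76 in parenchyma.

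Between the CNS compartments most calls lay in the comparison of parenchyma with CSF. In parenchyma 5 of the 6 were higher than in CSF, where 17.1% of all genes tested were called higher, and Hk2 was not called. Parenchyma exceeded meninges for 3 of the 6 (Slc2a1, Gapdh and Ldha), against 6.58% of all genes. Meninges exceeded CSF for 1 of the 6 (Gapdh), against 1.97% of all genes. Without blood library 3 and meninges library 2 the last 2 counts were 1 and 0, where 764 and 248 of all genes were called in either direction. With all libraries those numbers were 1375 and 289. The count for parenchyma over meninges was also 1 without any of the 3 meninges libraries or without parenchyma library 2. There 739 to 899 of all genes were called in either direction. The count for meninges over CSF was 0 without CSF library 1 or 2 or meninges library 1 or 3, and 2 without CSF library 3. There 126 to 176 of all genes were called in either direction. With the replicate block 5 of the 6 were higher in parenchyma than in meninges, against 11.3% of all genes, and 4 of the 6 in meninges than in CSF, against 5.25%. With the block 4 of the 6 were higher in CSF than in blood, against 22.3%. The median log2 fold change of the 6 genes was 0.31 for meninges against CSF, 0.62 for parenchyma against CSF and 0.34 for parenchyma against meninges. That of all genes, which scaling places near 0, was 0.00 in each. Their median absolute log2 fold change was 0.12, 0.23 and 0.16 in the same order.

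**Figure D4:**
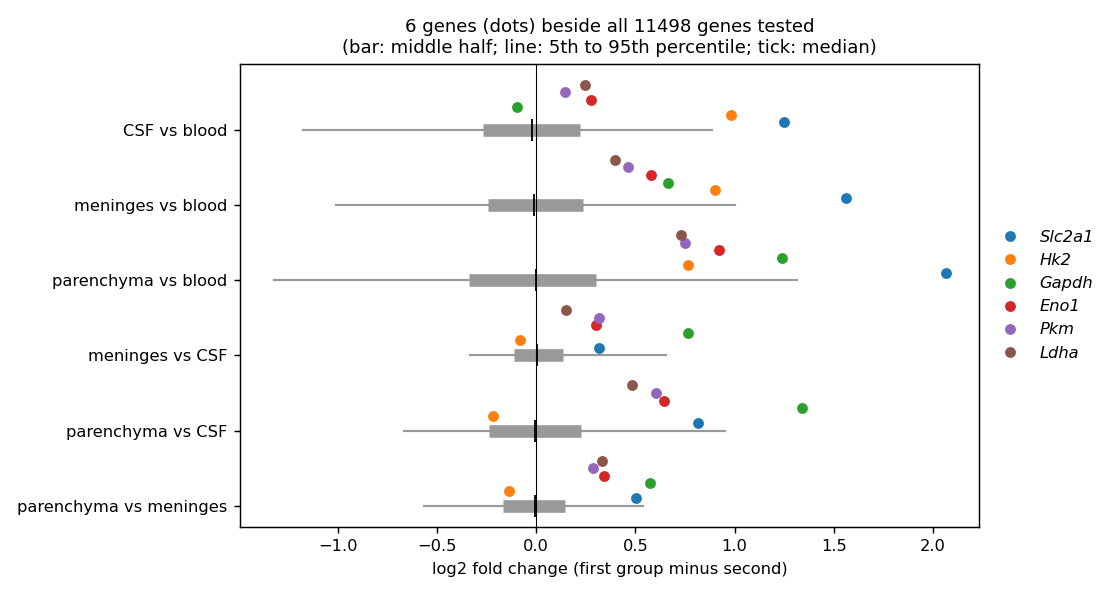
Log2 fold changes of the 6 genes (dots) in the 6 comparisons beside those of all 11498 genes tested, with the grey bar spanning the interquartile range, the thin line the 5th to 95th percentile and the tick the median. Slc2a1 lies beyond the 95th percentile in each comparison with blood, Hk2 in that of CSF with blood, and Gapdh in each comparison between CNS compartments.

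Of all gene counts the 6 genes together took 0.0680% ± 0.00641 (SD, n = 3) in parenchyma, 0.0568% ± 0.00597 in meninges, 0.0481% ± 0.00697 in CSF and 0.0358% ± 0.00208 in blood. Within these reads Slc2a1 took 8.85% ± 0.0637 in blood and 18.8% ± 0.266 in parenchyma, values given as a description without a test. Hk2 took 12.1% ± 0.663 in blood, 17.4% ± 0.779 in CSF and 10.4% ± 0.532 in parenchyma. Ldha took 32.7% ± 0.255 in blood and 27.6% ± 0.750 in parenchyma. Reads aligned to several places are not in these counts. All these shares are therefore as uncertain as the absolute levels of Gapdh, Eno1, Pkm and Ldha.

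Ldha and Pkm lie at the end of the pathway, and their ratio is likewise a description chosen after the levels had been seen. Ldha reads per Pkm read were 1.62 ± 0.0977 (SD, n = 3) for blood, and 1.74 ± 0.192, 1.57 ± 0.259 and 1.60 ± 0.177 for CSF, meninges and parenchyma, and the groups overlapped in all 6 pairs. Library 2 had the highest ratio of its group in CSF (1.87), meninges (1.87) and parenchyma (1.81), but not in blood (1.57).

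Likeness of pattern was described by Pearson's r of log2 CPM over the 12 libraries, which share compartments, so that no p is given. The most alike pairs were Eno1 with Ldha (0.968) and Eno1 with Pkm (0.954), and the least alike Hk2 with Gapdh (0.318). Slc2a1 was most like Ldha (0.915), Gapdh most like Ldha (0.859) and Hk2 most like Slc2a1 (0.818). After each compartment's mean was subtracted, the deviations of single libraries correlated at 0.935 for Hk2 and Ldha, 0.926 for Slc2a1 and Ldha and 0.914 for Slc2a1 and Hk2. Those of Gapdh correlated at 0.0402 with Eno1, 0.0629 with Pkm, 0.201 with Slc2a1, 0.345 with Hk2 and 0.364 with Ldha. Its counts were the fewest of the 6, and their part in these values was not tested. Among 8072 other genes that averaged 10 CPM or more, the profiles most like the mean of the 6 genes were those of ENSRNOG00000007152 (r = 0.985) and ENSRNOG00000010756 (r = 0.981), whose names are not paired with identifiers here. ENSRNOG00000007152 averaged 204 CPM in the blood libraries and 359.7, 459.9 and 665 CPM in those of CSF, meninges and parenchyma. ENSRNOG00000010756 averaged 151, 184, 198 and 242 CPM in the same order.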

How the data were processed

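RNA sequencing libraries of messenger RNA (Illumina TruSeq, per the labels) were analysed from 12 samples, 3 per compartment, grouped by their titles. The authors deposited raw read counts per Ensembl rat gene, 1 file per library, with 26405 genes and 5 closing summary lines, left out of library sizes and tests alike. Tools named in the submitters' processing notes, with no roles, are STAR, HTSeq, SAMtools, DESeq2 and CASAVA 1.8.2. Genome build, annotation and strand setting: not given in the sources used here. Reads of a gene and an overlapping antisense gene cannot be told apart if strand was ignored. Multiply aligned entries made up 35.8% to 65.2% of a file. The 6 gene names come with the identifiers that define the set. The RefSeq table has an Ensembl identifier in 0 of 47357 rows, so planned lists of other pathway genes and cell type markers could not be used. Members and lists were chosen with earlier results of these data known.

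The main test used edgeR 4.0.16 (R 4.3.3): filterByExpr, which left 11498 genes, TMM scaling, 1 quasi-likelihood fit of all 12 libraries with compartment as the only term, two-sided contrasts for 6 pairs, and Benjamini-Hochberg adjustment over all genes. Standard errors were derived from the F statistic. One count corresponds to 0.0453 to 0.0887 CPM. Named genes were the 6 members and the 2 other genes, of mean CPM at least 10, whose log2 CPM (offset 0.5) correlated best with the members' mean profile. Same-numbered libraries deviated together (correlations of deviations from group means of 0.0986 to 0.513, above 0.1 in each pair of 5 of the 6 comparisons, and not in each pair of meninges and blood), so a fit with the number as replicate block is given where it changes a call. The labels do not say what the number marks. The other alternatives were RLE scaling, library size alone, DESeq2 1.42.0, no filter, only the groups compared, and leaving out libraries. The fit was tested on simulated data with known changes.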

Additional observations from a re-analysis of the deposited data

How the results depend on the processing

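Over all alternatives, 639 of the log2 fold changes recomputed for the 6 genes kept direction and call, 22 lost the call, 20 gained it and 3 changed sign, none of the last having been called. The 639 are not a measure of robustness. They include fits that left out a library of neither compartment compared, so that the pair itself kept all its libraries. All 6 genes stayed called in parenchyma against blood and among the 4 compartments under all alternatives run. With a library left out, the number called was 2 to 4 in CSF against blood, 0 to 2 in meninges against CSF and 1 to 3 in parenchyma against meninges. In these fits 3274 to 4414, 126 to 315 and 739 to 1739 of all genes were called in either direction. With the replicate block these counts were 4, 4 and 5, and without the filter on low counts 4, 3 and 5. The numbers of calls among all genes rose as well, from 4310, 289 and 1375 in the main fit. They were 5423, 1046 and 2428 with the block, and 4394, 890 and 1805 without the filter. The fit without the filter tested every gene with any count, more than the 11498 of the main fit. Its higher numbers therefore do not mean that a larger share of genes was called, and that share is not given. Without blood library 3 and meninges library 2, which held the most multiply aligned entries, the counts for meninges against CSF and parenchyma against meninges were 0 and 1. Fewer libraries remained in that fit, and the causes of the lost calls were not tested. The block changed no other call than those given above. The log2 fold change of Gapdh in CSF against blood ran from -0.20 to 0.0648 with a library left out, being 0.0648 without blood library 1 and 0.0021 without CSF library 2, and that of Hk2 in meninges against CSF from -0.16 to 0.0459, the latter without CSF library 3. Scaling by library size alone moved the median of all genes by -0.05 in parenchyma against blood. The Hk2 to Slc2a1 ratio, a measure chosen after seeing the data, ranged with a library left out from 1.33 to 1.40 in blood and from 0.539 to 0.565 in parenchyma.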
